A study of Mus musculus with 12 samples.

Results

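The 9 complement genes described here are 3 subunits of the initiator C1q (C1qa, C1qb and C1qc), the components C4b and C3, the anaphylatoxin receptors C3ar1 and C5ar1, and the inhibitors Serping1 and Cd59a. They were chosen by name as components, receptors and regulators of complement, with earlier results of these data known. All 9 were found among the 41388 genes of the count table. Complement is a cascade of secreted proteins in which C1q recognizes a target, C4b and C3 are cleaved and deposited on it, and receptors on phagocytes bind the products. In brain, C1q is made mainly by microglia, and C1q and C3 are known to tag synapses for removal during development. Serping1 encodes the C1 inhibitor, which blocks the C1 proteases, and Cd59a encodes a membrane protein that stops assembly of the membrane attack complex.

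RNA was sequenced from the prefrontal cortex (PFC) of male Swiss Webster mice aged 10 weeks, with 4 libraries in each of 3 groups. Conventional mice (CON) were raised in the standard unit, germ-free mice (GF) were kept in isolators, and exGF mice were born germ-free and moved to the standard unit on postnatal day 21, where environmental microbes colonized them. All groups ate the same autoclaved diet. The mice were offspring of GF or CON breeding pairs, so breeding stock and germ-free birth cannot be told apart in comparisons with CON. Each library was a pool of RNA from 2 to 3 animals, so p-values measure the spread between pools.

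Depth, as counts on genes, was 22757169 to 29134760 in CON libraries, 13280926 to 23465074 in GF libraries and 22702599 to 28615407 in exGF libraries. GF replicate 1 was the shallowest library. Its summed level of 8 choroid plexus markers (14.9 CPM, counts scaled to an equal library size) lay above the other 11 libraries (2.94 to 7.22 CPM). Of these 8 markers 6 averaged under 1 CPM, and Ttr alone reached 9.29 CPM in GF. Marker genes of neurons, astrocytes, oligodendrocytes and microglia were all detected, which cannot tell PFC from other brain regions. The 4 exGF columns of the table are called GFR1 to GFR4 and were not tied to single replicates. Levels are given as CPM after TMM normalization, or as RPKM, which is CPM per kilobase of exon, where genes are compared with each other.

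C1qa, C1qb and C1qc lie side by side on the minus strand of chromosome 4 (GRCm38) and span 18675 bases in all. C1qb is at chr4:136880129-136886187, C1qc at chr4:136889804-136893065 and C1qa at chr4:136895917-136898803, with 3616 and 2851 bases between them. The bases before the RefSeq start of C1qb (chr4:136886201-136886450, 250 bases) and C1qc (chr4:136893066-136893164, 99 bases outside the annotated gene) are shown because C1qb had the lowest p-value of the members against CON in both GF and exGF, and C1qc the next lowest in exGF. They are written 5′ to 3′ on the minus strand from GRCm38.p6, with GAGGAA, the core letters bound by the macrophage factor PU.1, or its reverse complement in capitals.
C1qb: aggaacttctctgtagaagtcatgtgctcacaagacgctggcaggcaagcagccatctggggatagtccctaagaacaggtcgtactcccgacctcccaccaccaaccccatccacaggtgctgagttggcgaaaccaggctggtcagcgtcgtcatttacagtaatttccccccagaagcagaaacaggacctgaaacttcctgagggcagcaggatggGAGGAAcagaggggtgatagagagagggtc
C1qc: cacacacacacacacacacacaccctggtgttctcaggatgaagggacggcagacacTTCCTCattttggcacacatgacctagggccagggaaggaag
Of the 6 members with a promoter in the RefSeq table, 3 held GAGGAA on either strand within 250 bases before and 50 after the start, namely C1qb (from base -30), C1qc (from base -193) and Cd59a (from base -62). The same letters stood in 28.3% of 32851 promoters of that length. A motif of interferon regulatory factors, searched on both strands, was found in Cd59a alone of the 6 and in 3.44% of all promoters, and a STAT motif (TTCNNNGAA) in none of the 6 and in 8.3% of all. C3, C3ar1 and C5ar1 held none of these letters. C1qa, C4b and Serping1 are named only.

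The other members are spread over the genome. C4b (chr17:34728380-34743882) and C3 (chr17:57203970-57228136) are on chromosome 17, C3ar1 (chr6:122847138-122856161) on chromosome 6, C5ar1 (chr7:16246743-16259540) on chromosome 7, and Serping1 (chr2:84765387-84775444) and Cd59a (chr2:104095801-104115354) on chromosome 2. Exons of the 9 members overlap no exon of another gene of the count table. Of the 31-base words in C4b transcripts 48.3% also occur in its neighbour copy C4a, and 9.39% of those in Cd59a occur in other genes, mostly in Cd59b. Only uniquely aligned pairs were counted, so pairs that align to both copies were left out and these genes may be undercounted.

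Per length, the C1q subunits were the most abundant members in CON. C1qa had 44.7 ± 8.37 RPKM (SD, n = 4), C1qb 34.7 ± 2.43 RPKM and C1qc 13.3 ± 1.86 RPKM. The inhibitors followed, with Serping1 at 4.72 ± 0.762 RPKM and Cd59a at 4.39 ± 0.983 RPKM, before C4b at 2.20 ± 0.349 RPKM. The receptors and C3 were scarce, with 0.317 ± 0.199 RPKM for C3ar1, 0.192 ± 0.0566 RPKM for C5ar1 and 0.129 ± 0.0571 RPKM for C3. In that order, C1qa and C1qb, Serping1 and Cd59a, C3ar1 and C5ar1, and C5ar1 and C3 overlapped between CON libraries and are not ordered beyond their spread. C4b RPKM uses the full exon length, although pairs that also align to C4a were not counted, so its place below the inhibitors is uncertain. In GF and exGF libraries the ranges of C1qa and C1qb did not overlap, and Cd59a stood above Serping1 by mean, with overlapping ranges.

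**Figure D1:**
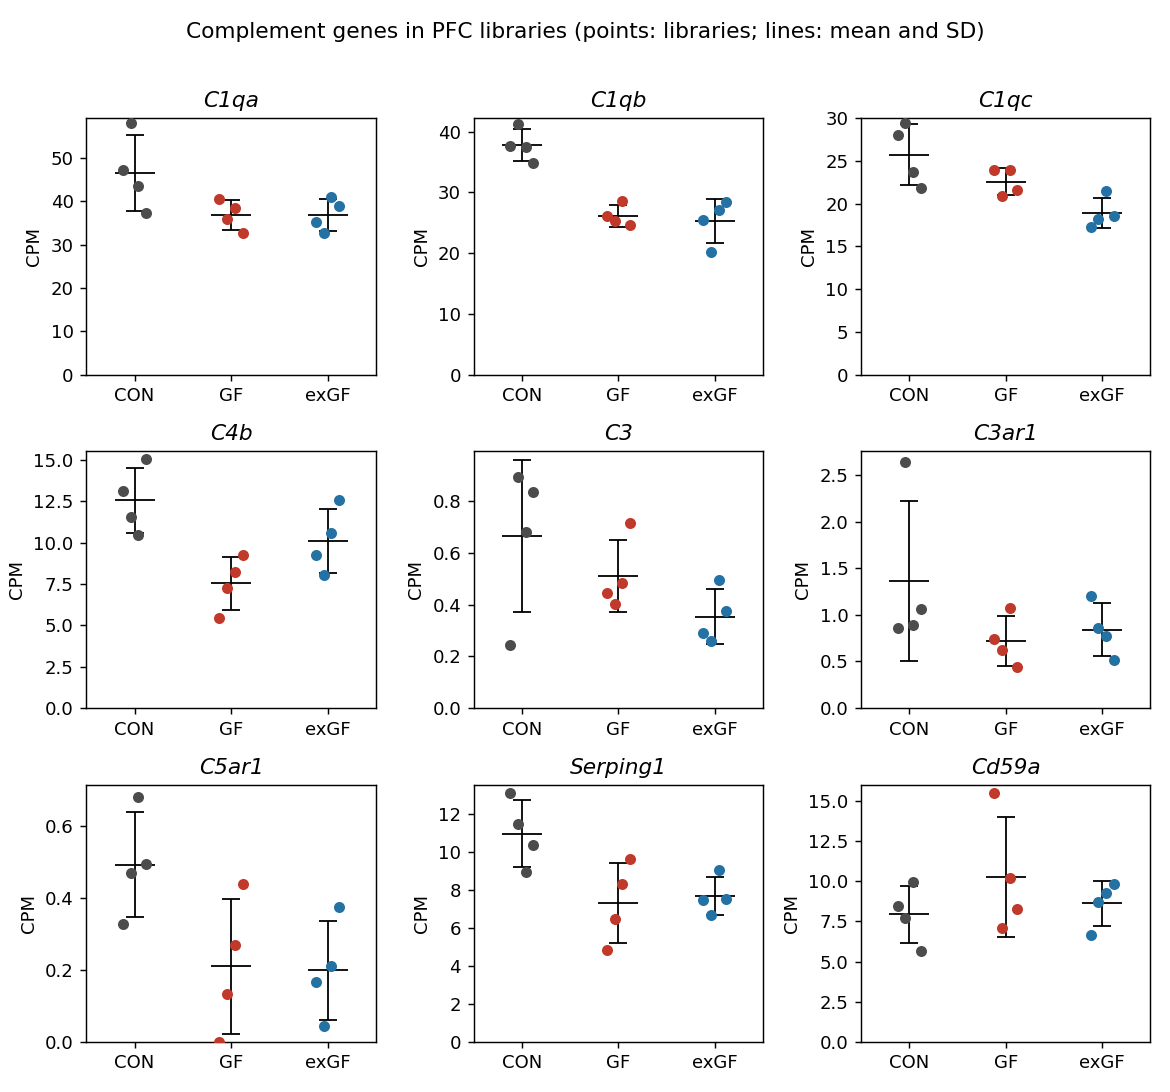
Level of each complement gene in CPM (vertical axes, starting at 0) in the 12 libraries by group; points are libraries, lines the mean and SD. C1qb lies at 34.8 to 41.2 CPM in CON and at most at 28.6 CPM in the other groups, while a single CON library at 2.64 CPM sets the C3ar1 mean.

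In GF mice 7 of the 8 testable members had a lower fitted level than in CON, and C1qb passed the test. The quasi-likelihood test of edgeR, adjusted over 15542 genes by the Benjamini-Hochberg method, called 1 of 8 members lower (adjusted p under 0.1) and 0 higher, beside 0.135% of all tested genes called lower, 0.116% called higher and 0.251% in either direction. At an unadjusted p under 0.05, 4 of 8 (C1qa, C1qb, C4b and Serping1) were lower and 0 higher, beside 3.94% of all genes lower, 4.75% higher and 8.69% in either direction. The median log2 fold change of the 8 members was -0.46, beside 0.01 for all tested genes. Because members were chosen with earlier results of these data known, their counts and medians here and below are descriptions. Libraries of the 2 groups did not overlap for C1qb and C4b, both lower in GF, beside 2.55% of all genes lower and 2.53% higher without overlap. C5ar1 did not pass the filter on low counts and is tested separately below.

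In exGF mice 7 of the 8 testable members again had a lower fitted level than in CON, and none was called. Of 15813 genes tested 0.0696% were called by the same test, 0.0443% lower and 0.0253% higher. At an unadjusted p under 0.05 by edgeR, 4 members (C1qa, C1qb, C1qc and Serping1) were lower, beside 2.87% of all genes lower, 2.46% higher and 5.33% in either direction. DESeq2 called 1 member, C1qb, among 52 genes called in all. The median log2 fold change was -0.48, beside -0.01 for all genes. C1qb and C1qc did not overlap between exGF and CON, both lower in exGF, beside 1.52% of all genes lower and 1.78% higher without overlap. The same 4 CON libraries stand in both comparisons, so the 2 sets of values are not independent.

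Between exGF and GF mice, 0 of 8 members and 0% of 15569 genes were called by edgeR, and 0 members by DESeq2. At an unadjusted p under 0.05, C1qc was lower and C4b higher in exGF, which is 2 of 8 members beside 6.65% of all genes (3.35% lower and 3.30% higher). For no member were the 2 groups free of overlap, beside 1.55% of all genes lower and 1.77% higher. The median log2 fold change was -0.02, beside -0.00 for all genes.

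**Figure D2:**
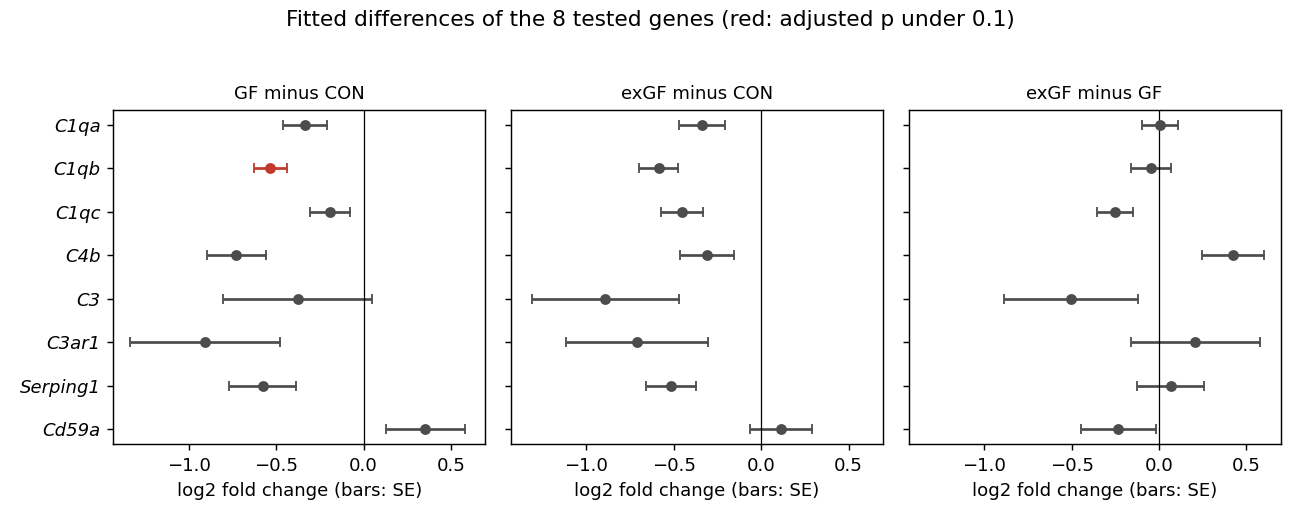
Fitted log2 fold change (horizontal axis, bars are SE) of the 8 members tested in each comparison; red marks an adjusted p under 0.1. C1qb in GF minus CON (-0.53) is the only red point, and Cd59a is the only gene above 0 in both comparisons with CON.

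C1qb encodes the B chain of C1q. Its level was 37.6, 41.2, 37.5 and 34.8 CPM in CON replicates 1 to 4. It was 26.1, 25.2, 28.6 and 24.6 CPM in GF replicates 1 to 4, and 25.4, 20.2, 27.1 and 28.4 CPM in exGF libraries GFR1 to GFR4. Every GF and every exGF library lay below every CON library. The group means were 37.8 ± 2.64 CPM in CON, 26.1 ± 1.76 CPM in GF and 25.3 ± 3.60 CPM in exGF (SD, n = 4 each). C1qb fell in GF by 0.53 on the log2 scale (SE 0.09, a fold of 0.691), with an adjusted p of 0.0307 (edgeR), and it ranked 26 of 15542 genes by p. The adjusted p became 0.124 without CON replicate 3 and 0.124 without GF replicate 4, where the log2 fold change was -0.54 and -0.50. In exGF the log2 fold change against CON was -0.59 (SE 0.11, a fold of 0.666), which did not pass (edgeR adjusted p = 0.182), although it passed without the filter on low counts (adjusted p = 0.0261), in DESeq2 (adjusted p = 0.00224) and in 1 edgeR fit of all 12 libraries (adjusted p = 0.0718). GF and exGF libraries overlapped, with a log2 fold change of -0.04 (SE 0.11, edgeR adjusted p = 0.947). C1qb and C4b are among the genes that the study listed from these same libraries, so their direction here is not independent evidence.

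C1qa encodes the A chain. It had 47.2, 58.0, 43.5 and 37.3 CPM in CON replicates 1 to 4, 40.5, 35.8, 38.6 and 32.6 CPM in GF replicates 1 to 4, and 35.2, 32.6, 40.9 and 38.9 CPM in GFR1 to GFR4. CON replicate 2 was the highest library, and CON replicate 4 lay inside the range of the other groups. Means were 46.5 ± 8.70 CPM in CON, 36.9 ± 3.44 CPM in GF and 36.9 ± 3.70 CPM in exGF (SD, n = 4 each). In GF the log2 fold change was -0.34 (SE 0.13), which did not pass (edgeR adjusted p = 0.438). In exGF it was -0.34 (SE 0.13) against CON, likewise without passing (edgeR adjusted p = 0.818). Without CON replicate 2 these values were -0.21 in GF and -0.21 in exGF. Against GF, the exGF value was 0.01 (SE 0.10, edgeR adjusted p = 0.995).

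C1qc encodes the C chain, and its fitted difference between GF and CON was the smallest of the 8 tested members. Its level was 28.0, 29.5, 23.7 and 21.8 CPM in CON replicates 1 to 4, 23.9, 20.8, 23.9 and 21.6 CPM in GF replicates 1 to 4, and 17.3, 18.3, 21.5 and 18.6 CPM in GFR1 to GFR4. GF libraries overlapped CON, while the 4 exGF libraries lay below all CON libraries, by little for GFR3. Means were 25.8 ± 3.59 CPM, 22.6 ± 1.60 CPM and 18.9 ± 1.81 CPM in CON, GF and exGF (SD, n = 4 each). Against CON, the log2 fold change was -0.19 (SE 0.11, edgeR adjusted p = 0.667) in GF and -0.45 (SE 0.12, edgeR adjusted p = 0.507) in exGF. Without CON replicate 2 the GF value was -0.12. Against GF, it was -0.25 in exGF (SE 0.10, edgeR adjusted p = 0.736).

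The 3 chains assemble into C1q in equal number, so their shares of the summed C1q RPKM were set side by side as a description. C1qb made up 37.7% ± 2.49 in CON (34.8% to 40.4% over libraries), 33.8% ± 1.34 in GF (31.8% to 34.7%) and 33.8% ± 2.05 in exGF (31.3% to 35.7%). C1qc made up 14.4% ± 0.694 in CON (13.9% to 15.4%), 16.4% ± 0.569 in GF (15.8% to 17.2%) and 14.3% ± 1.25 in exGF (13.2% to 15.9%). C1qa made up 48.0% ± 2.46, 49.8% ± 1.57 and 51.8% ± 0.799 in CON, GF and exGF. GF libraries thus had a lower C1qb share and a higher C1qc share than every CON library, and exGF overlapped CON for each chain. These shares rest on the same counts as the tests above.

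**Figure D3:**
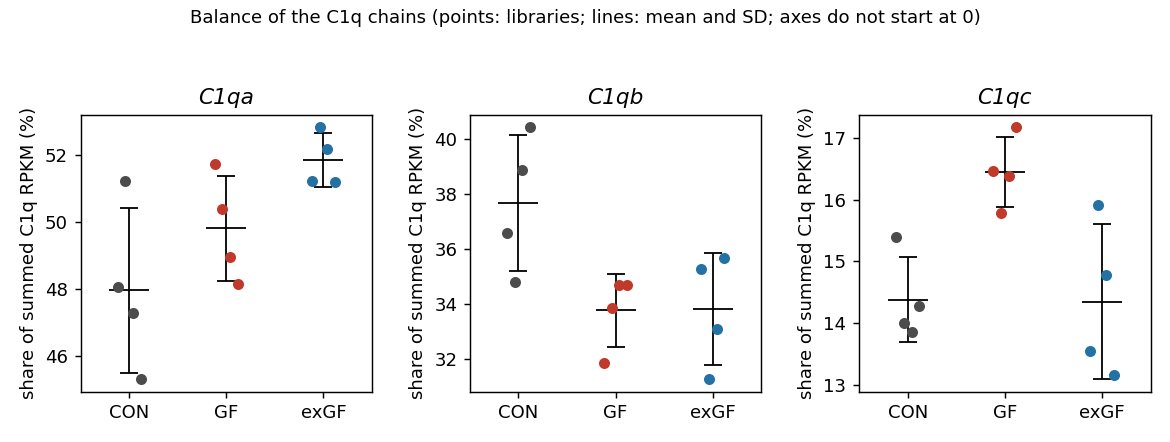
Share of each C1q chain in the summed C1q RPKM (vertical axes in percent, which do not start at 0) by group; points are libraries, lines the mean and SD. The C1qc share is 15.8% to 17.2% in GF and 13.9% to 15.4% in CON, without overlap.

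C4b encodes complement C4, which C1 cleaves. It had 13.1, 11.6, 10.5 and 15.0 CPM in CON replicates 1 to 4, 5.43, 7.25, 8.21 and 9.25 CPM in GF replicates 1 to 4, and 9.28, 8.03, 10.6 and 12.6 CPM in GFR1 to GFR4. All GF libraries lay below all CON libraries, with GF replicate 1 the lowest, and exGF libraries lay between and overlapped both groups. Means were 12.5 ± 1.99 CPM in CON, 7.53 ± 1.63 CPM in GF and 10.1 ± 1.94 CPM in exGF (SD, n = 4 each). C4b had a log2 fold change in GF of -0.73 (SE 0.17, a fold of 0.604) and missed the threshold (edgeR adjusted p = 0.144). It passed without the filter on low counts (adjusted p = 0.0107) and in DESeq2 (log2 fold change -0.49, adjusted p = 0.0105). In exGF it was -0.31 against CON (SE 0.15, edgeR adjusted p = 0.938) and 0.42 against GF (SE 0.18, edgeR adjusted p = 0.736).

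The near copy C4a was less abundant per length than C4b, with 0.463 ± 0.249 RPKM in CON. It had 2.87 ± 1.55 CPM in CON, 1.26 ± 0.653 CPM in GF and 1.54 ± 0.387 CPM in exGF (SD, n = 4 each). Its log2 fold change was -1.22 in GF (SE 0.46, edgeR adjusted p = 0.438) and -0.90 in exGF (SE 0.36, edgeR adjusted p = 0.840), so neither passed.

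C3 encodes the central component of the cascade, and it was barely detected. It had 6, 21, 20 and 22 counts in CON replicates 1 to 4, 6, 9, 9 and 13 counts in GF replicates 1 to 4, and 7, 6, 14 and 11 counts in GFR1 to GFR4. CON replicate 1 was the lowest library in CPM and the other 3 CON libraries were above nearly all others. Means were 0.665 ± 0.294 CPM, 0.512 ± 0.140 CPM and 0.354 ± 0.105 CPM in CON, GF and exGF (SD, n = 4 each). Against CON, C3 had a log2 fold change of -0.38 in GF (SE 0.42, edgeR adjusted p = 0.846) and -0.89 in exGF (SE 0.42, edgeR adjusted p = 0.924). The GF value was -0.64 without CON replicate 1, -0.21 without CON replicate 2, -0.25 without CON replicate 4 and -0.58 without GF replicate 4. Against GF, it was -0.50 in exGF (SE 0.39, edgeR adjusted p = 0.804).

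C3ar1 encodes the receptor of C3a. It had 0.861, 2.64, 0.886 and 1.07 CPM in CON replicates 1 to 4, 0.743, 0.626, 1.07 and 0.440 CPM in GF replicates 1 to 4, and 1.20, 0.863, 0.777 and 0.511 CPM in GFR1 to GFR4. CON replicate 2 stood apart, and the other CON libraries overlapped both other groups. C3ar1 had a log2 fold change of -0.91 in GF (SE 0.43, edgeR adjusted p = 0.587) and -0.71 in exGF (SE 0.41, edgeR adjusted p = 0.952). Without CON replicate 2 it was -0.38 in GF and -0.18 in exGF. From GF to exGF it was 0.21 (SE 0.37, edgeR adjusted p = 0.917).

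C5ar1 encodes the receptor of C5a, which draws phagocytes. It had 8, 11, 20 and 13 counts in CON replicates 1 to 4, 0, 3, 5 and 8 counts in GF replicates 1 to 4, and 4, 1, 6 and 11 counts in GFR1 to GFR4. The highest library of each other group overlapped the lowest CON library, and the 0 in GF replicate 1 allows up to 0.223 CPM (3 counts, counting error only). Means were 0.493 ± 0.145 CPM in CON, 0.211 ± 0.188 CPM in GF and 0.199 ± 0.137 CPM in exGF (SD, n = 4 each). The exact two-sided permutation test on CPM gave p = 0.0571 for GF against CON, p = 0.0571 for exGF against CON and p = 0.943 for exGF against GF, over 70 splits each. Without the filter on low counts the log2 fold change was -1.19 in GF (SE 0.62, edgeR adjusted p = 0.675) and -1.26 in exGF (SE 0.54, edgeR adjusted p = 0.819). C5ar2, the other C5a receptor, had 10, 16, 13 and 1 counts in CON, 0, 5, 0 and 2 counts in GF, and 9, 4, 9 and 3 counts in exGF, and was not tested.

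Serping1 had 13.1, 11.5, 8.93 and 10.4 CPM in CON replicates 1 to 4. It had 4.83, 6.44, 8.32 and 9.63 CPM in GF replicates 1 to 4, and 7.45, 6.69, 9.04 and 7.52 CPM in GFR1 to GFR4. GF replicate 1 was the lowest library and CON replicate 1 the highest, and GF replicate 4 and GFR3 reached into the CON range. Means were 11.0 ± 1.77 CPM in CON, 7.31 ± 2.11 CPM in GF and 7.68 ± 0.984 CPM in exGF (SD, n = 4 each). Serping1 had a log2 fold change of -0.58 in GF (SE 0.19, edgeR adjusted p = 0.369) and -0.44 without GF replicate 1. In exGF it was -0.52 against CON (SE 0.14, edgeR adjusted p = 0.549) and 0.07 against GF (SE 0.19, edgeR adjusted p = 0.955). The summed level of 10 meningeal and perivascular fibroblast markers was also highest in CON replicate 1 (359.9 CPM) and lowest in GF replicate 1 (191.9 CPM), and the part of these cells in the Serping1 values was not tested.

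Cd59a had 8.45, 7.72, 9.95 and 5.67 CPM in CON replicates 1 to 4, 15.5, 7.11, 10.2 and 8.26 CPM in GF replicates 1 to 4, and 6.67, 8.72, 9.25 and 9.87 CPM in GFR1 to GFR4. The groups overlapped, and GF replicate 1 was the highest library. The log2 fold change was 0.35 in GF (SE 0.23, edgeR adjusted p = 0.698), 0.09 without GF replicate 1 and 0.22 without CON replicate 4. In exGF it was 0.11 against CON (SE 0.18, edgeR adjusted p = 0.989) and -0.23 against GF (SE 0.21), which did not pass either. Its near copy Cd59b had 0.455 ± 0.294 CPM in CON, 0.628 ± 0.0858 CPM in GF and 0.679 ± 0.165 CPM in exGF (SD, n = 4 each), and its log2 fold change was 0.47 in GF (SE 0.47, edgeR adjusted p = 0.823) and 0.59 in exGF (SE 0.45, edgeR adjusted p = 0.968).

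No other gene of the pathway was called, a share near that of all tested genes. Of 51 further complement genes 31 could be tested in at least 1 comparison, and the other 20 reached at most 0.749 CPM in any library, with 4 (Mbl1, Cfd, C6 and Vsig4) at 0 counts throughout. In GF 0 of 29 were called by edgeR, beside 0.251% of all tested genes, and 0 by DESeq2, which called 195 genes in all. By edgeR 8 had an unadjusted p under 0.05 (2 higher, 6 lower) beside 8.69% of all tested genes, and the median log2 fold change was -0.10. In exGF 0 of 30 were called, beside 0.0696% of all genes. At an unadjusted p under 0.05 there were 4 (1 higher, 3 lower) beside 5.33% of all genes, and the median was 0.03. Between exGF and GF 0 of 30 were called, beside 0% of all genes. At an unadjusted p under 0.05 there were 3, all higher in exGF, beside 6.65% of all genes, and the median was 0.09.

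Among classical and lectin pathway genes 3 of 7 were lower in GF at an unadjusted p under 0.05 (C2, C4a and Colec12) and 1 higher (C1ra), beside 3.94% of all genes lower and 4.75% higher. These names, other than C4a, were chosen after their values were seen. C2, which encodes the protease cleaved together with C4, had 1.68 ± 0.421 CPM in CON, 0.959 ± 0.384 CPM in GF and 1.59 ± 0.129 CPM in exGF (SD, n = 4 each). Its log2 fold change was -0.83 in GF (SE 0.33, edgeR adjusted p = 0.478) and 0.76 from GF to exGF (SE 0.30, edgeR adjusted p = 0.736). C1ra, which encodes a C1 protease, went the other way by fitted value, with 1.91 ± 0.524 CPM in CON, 3.10 ± 0.558 CPM in GF and 2.83 ± 0.304 CPM in exGF (SD, n = 4 each). Its log2 fold change was 0.69 in GF (SE 0.24, edgeR adjusted p = 0.405) and 0.55 in exGF (SE 0.22, edgeR adjusted p = 0.840).

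Among membrane and synaptic regulators 1 of 12 had an unadjusted p under 0.05 in GF, a share near the 8.69% of all genes, namely Cd55, which encodes a membrane protein that speeds decay of the C3 convertases. Cd55 had 6.56, 6.35, 6.92 and 6.13 CPM in CON replicates 1 to 4 and 8.25, 8.10, 8.64 and 8.92 CPM in GF replicates 1 to 4. It had 9.03, 6.78, 7.20 and 6.74 CPM in GFR1 to GFR4. All GF libraries lay above all CON libraries, as in 2.53% of all genes, and exGF overlapped both. Cd55 had a log2 fold change of 0.38 in GF (SE 0.12), which did not pass (edgeR adjusted p = 0.351), and it was 0.19 in exGF against CON (SE 0.13, edgeR adjusted p = 0.963). Of 4 receptors tested, 2 were lower in GF at an unadjusted p under 0.05 (Lrp1 and Itgb2) and 0 higher, beside 3.94% of all genes lower. Lrp1 had a log2 fold change of -0.30 in GF (SE 0.11, edgeR adjusted p = 0.417). Itgb2, a subunit of complement receptors CR3 and CR4, had -0.43 (SE 0.16, edgeR adjusted p = 0.450), and its partner Itgam had -0.10 (SE 0.10, edgeR adjusted p = 0.809). These receptors were named after their values were seen. Of 3 fluid-phase regulators tested, 1 was lower in GF at that p, beside 3.94% of all genes, namely Vtn, which encodes vitronectin. Vtn, likewise named after its values were seen, had a log2 fold change of -0.26 in GF (SE 0.11, edgeR adjusted p = 0.507). No alternative processing called any of these pathway genes.

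**Figure D4:**
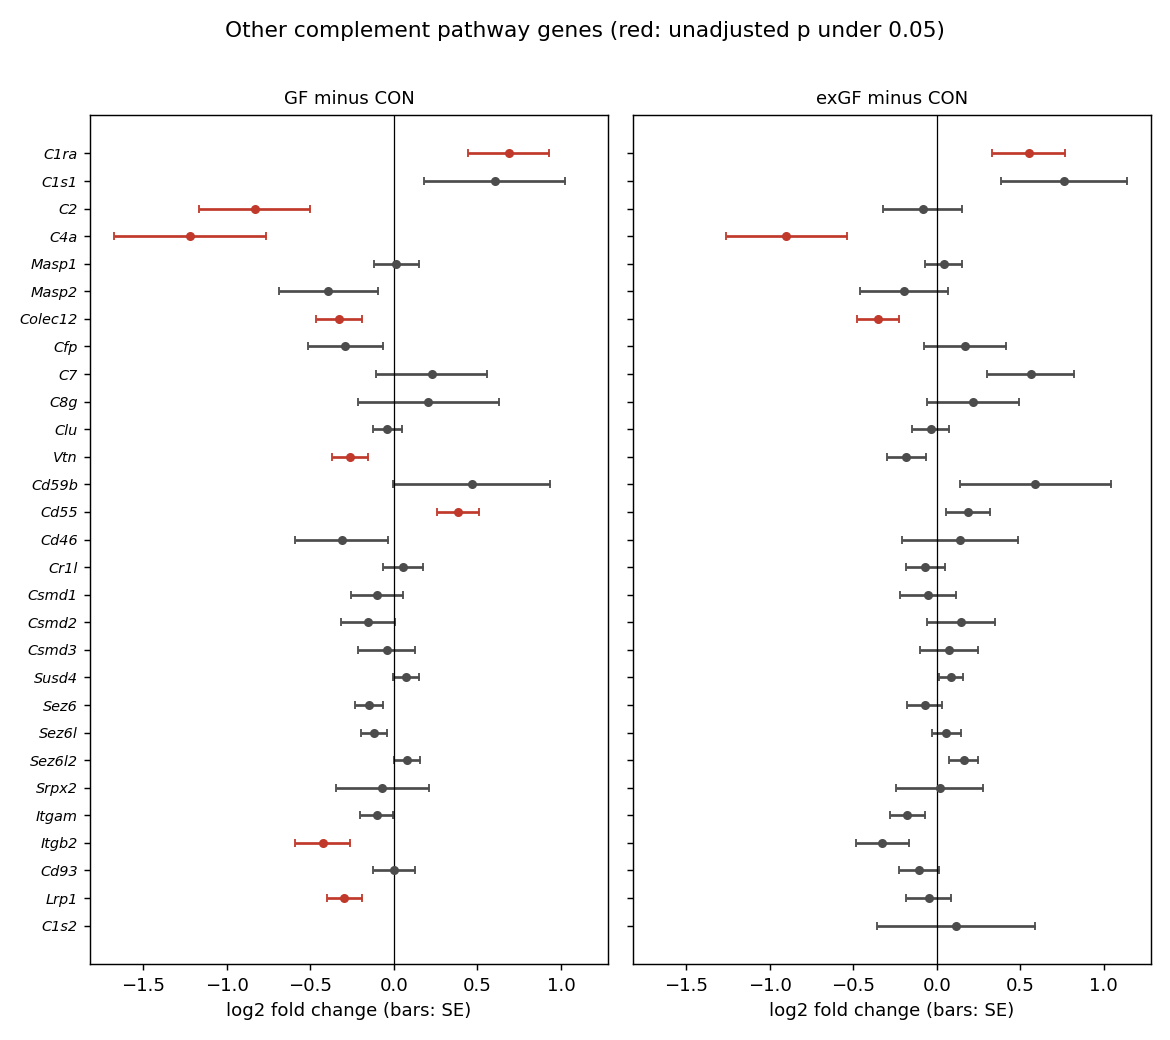
Fitted log2 fold change (horizontal axis, bars are SE) of named other complement genes tested against CON, in GF (left) and exGF (right); red marks an unadjusted p under 0.05, and no gene passed the adjusted threshold. C4a (-1.22) and C2 (-0.83) lie farthest left in GF, and C1ra is red on the right of 0 in both panels.

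Markers of cells that could carry complement transcripts were measured in the same libraries. In bulk tissue fewer cells of a type and less RNA per cell cannot be told apart. The summed level of 17 microglial markers (among them Csf1r, Ctss and Cx3cr1, none at 0) was 532 to 624 CPM in CON, 491 to 566 CPM in GF and 456 to 506 CPM in exGF. GF overlapped CON, and every exGF library lay below every CON library. By edgeR 0 of 17 were called in either comparison, beside 0.251% of all genes in GF and 0.0696% in exGF. In GF 2 of 17 were lower at an unadjusted p under 0.05 (Csf1r and, named after its value was seen, Olfml3), beside 3.94% of all genes, with a median log2 fold change of -0.14. In exGF 8 of 17 were lower at that p, beside 2.87% of all genes, with a median of -0.26. Csf1r, the receptor that keeps microglia alive, had 105.7 ± 6.35 CPM in CON, 89.6 ± 3.60 CPM in GF and 90.9 ± 5.76 CPM in exGF (SD, n = 4 each).

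Within each library the mean log2 CPM of C1qa, C1qb and C1qc was set against that of the microglial markers, with no test because it is a score over members. The difference was 0.53, 0.53, 0.49 and 0.44 in CON replicates 1 to 4, 0.38, 0.10, 0.40 and 0.28 in GF replicates 1 to 4, and 0.18, 0.17, 0.45 and 0.28 in GFR1 to GFR4. All GF libraries lay below all CON libraries, while GFR3 overlapped CON. With the median over markers in place of the mean, exGF no longer overlapped CON (0.331 to 0.505 against 0.624 to 0.858) and GF did (0.379 to 0.630), so which group separates depends on this choice.

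**Figure D5:**
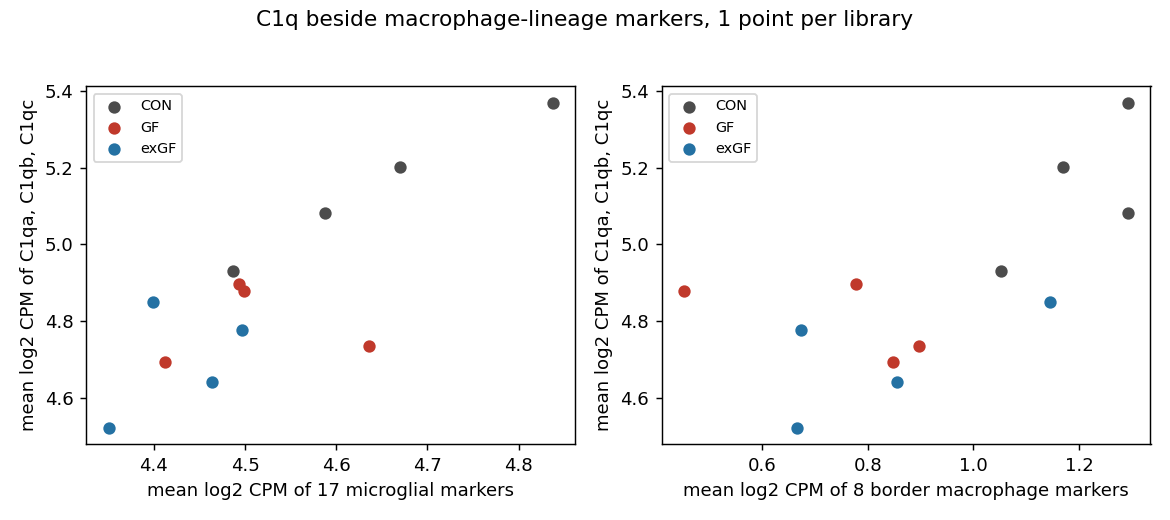
Mean log2 CPM of the C1q genes (vertical axes) against that of 17 microglial markers (left) and 8 border macrophage markers (right), 1 point per library; axes do not start at 0. GF points have C1q at 4.69 to 4.90 and CON points at 4.93 to 5.37. The microglial marker means of these groups overlap (4.41 to 4.64 and 4.49 to 4.84). The border macrophage marker means do not (0.45 to 0.90 in GF and 1.05 to 1.29 in CON).

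Border macrophages, which sit in meninges and around vessels, also express C1q. Their 8 markers (led by Stab1, Mrc1, F13a1 and Cd163, none at 0 throughout, 3 under 1 CPM) summed to 31.8 to 36.1 CPM in CON, 23.9 to 25.7 CPM in GF and 24.5 to 34.6 CPM in exGF. GF lay below CON without overlap and exGF overlapped it. The C1q mean minus the border macrophage mean was 3.94 ± 0.13, 4.06 ± 0.28 and 3.86 ± 0.17 on the log2 scale in CON, GF and exGF (SD, n = 4 each), with overlapping ranges. Fibroblast markers, led by Igf2, Igfbp2, Fmod and Col1a2, summed to 244.0 to 359.9 CPM in CON, 191.9 to 248.1 CPM in GF and 208 to 264 CPM in exGF. Of these markers 2 of 10 (Col1a2 and, named after its value was seen, Slc6a13) were called lower in GF by edgeR, beside 0.135% of all genes. In exGF 0 of 10 were called and 9 were lower at an unadjusted p under 0.05, beside 2.87% of all genes. Oligodendrocyte markers were higher in GF, with 6 of 8 called by edgeR beside 0.116% of all genes, and a summed level of 3417 to 5758 CPM against 2199 to 2695 CPM in CON. The part of these cell types in the complement values was not tested.

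Over the 12 libraries, C1qa and C1qb had a Pearson r of 0.84 on log2 CPM, C1qa and C1qc of 0.82 and C1qb and C1qc of 0.76, and C4b and Serping1 had 0.83. These are descriptions over libraries that share group differences and depth. Of 14171 genes with a mean of at least 1 CPM, those most like the C1q mean were Tpm3 (r = 0.943), Unc93b1 (r = 0.937), Ly86 (r = 0.922), Gusb (r = 0.913) and Apoe (r = 0.906). Those most like C4b were Fam69c (r = 0.909), Wdr6 (r = 0.907), Tubb6 (r = 0.884), Dpysl3 (r = 0.873) and Ccdc40 (r = 0.866). After group means were removed, r was 0.929 for Tpm3 and 0.935 for Apoe with C1q, and 0.852 for Fam69c with C4b.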

How the data were processed

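PolyA-enriched RNA of 12 PFC pools was sequenced in pairs. The authors trimmed reads with Trimmomatic 0.32, aligned them to GRCm38.p3 with STAR 2.3.1u and counted uniquely aligned pairs per Ensembl gene with HTSeq 0.6.0, per the submitters' processing notes. The supplementary methods of the study give a different STAR version. Raw counts of 41388 genes were deposited without normalization, and rows for pairs given to no gene were left out (13.0% to 19.2% of a library aligned to several places).

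Of the gene IDs 40254 had a symbol in GENCODE annotation of GRCm38. Tests ran in edgeR 4.0.16, with DESeq2 1.42.0 and limma 3.58.1 as alternatives (R 4.3.3). For each pair of groups (4 libraries each, no covariates), genes were filtered by filterByExpr, scaled by TMM and compared by the quasi-likelihood test of edgeR, with p-values adjusted over all genes tested (Benjamini-Hochberg) and calls at an adjusted p under 0.1. CPM used TMM over 12 libraries, and log2 CPM a prior count of 1. The test was checked on simulated data. Between libraries of a group the chi-square per gene averaged 8.73 to 37.3, far above sampling noise, so no library was counted as a repeat of another. Replicate numbers of CON and GF did not pair libraries (correlations of deviations from -0.05 to 0.03).

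All 9 members were named. Other pathway genes were named if called, at an unadjusted p under 0.01, or as near copies (C4a, Cd59b, C5ar2), markers as the 4 most abundant of a list, and like-patterned genes as the top 5 by r, with exceptions stated. The 4 pathway genes at 0 counts throughout were named as well. Values of 2 genes on these lists are left out of the text. Members and lists were chosen with earlier results of these data known. Alternatives were RLE, no filter on low counts, DESeq2 with a prior on fold changes, limma-voom, 1 fit of all 12 libraries, an adjusted p under 0.05, a replicate block, each library left out, and for marker and likeness values a prior count of 5, the median and Spearman's rho. Promoters came from RefSeq.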

Additional observations from a re-analysis of the deposited data

Results flagged for a closer look

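C3ar1 in CON replicate 2 was 2.64 CPM, while the other 3 CON libraries were at 0.861 to 1.07 CPM. Its gap to the nearest library was 0.885 of the range of the group, above Dixon's 95% critical value for 4 libraries. This was the only such value among 27 groups of 4 examined (9 genes in 3 groups), where chance gives about 1 in 20. The C3ar1 log2 fold change without this library is -0.38 in GF and -0.18 in exGF.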

How the results depend on the processing

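Of 344 member values under alternatives 326 kept their direction and side of the threshold, 2 lost the call, 5 gained it and 11 changed sign. The values for an adjusted p under 0.05 reuse the main fit, so they could not change sign or gain a call. In GF against CON the number of members called was 2 without the filter on low counts and 2 in DESeq2 (C1qb and C4b in both), and 0 to 1 with a library left out (0 without CON replicate 3 or GF replicate 4). All genes called numbered 221 without the filter, 195 in DESeq2 and 27 to 60 with a library left out, the last without GF replicate 2, where 39 were called with all libraries. In exGF against CON 1 member (C1qb) was called without the filter, 1 in DESeq2, 1 in the fit of all 12 libraries and 0 with any library left out, and 48, 52 and 8 to 14 genes in all were called without the filter, in DESeq2 and with a library left out. Between exGF and GF 32, 14 and 2 genes were called without the filter, in DESeq2 and in the fit of all 12 libraries, and 0 to 7 with a library left out, none of them a member. The cause of these differences was not tested.

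The signs that changed belong to small differences. For exGF against CON, Cd59a ran from -0.022 (without CON replicate 4) to 0.24. For exGF against GF, C1qa ran from -0.050 to 0.059 with a library left out (below 0 without GF replicate 2, GF replicate 4, GFR3 or GFR4). C1qb ran from -0.10 to 0.049 (above 0 without GF replicate 3 or GFR2), C3ar1 from -0.013 (without GFR1) to 0.47, Serping1 from -0.070 to 0.22 (below 0 without GF replicate 1 or GFR3) and Cd59a from -0.38 to 0.030 (without GF replicate 1). With Spearman's rho, 2 of the 5 genes most like C1q and 3 of the 5 most like C4b were again in the top 5.

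With the replicate block for CON and GF, 1 member (C1qb, adjusted p = 0.0940 by edgeR) and 51 genes were called, and the block changed no other call among members. No paired analysis was possible for exGF because its columns carry no number matched to a replicate. Counts were low for C3, C3ar1 and C5ar1, with at most 22, 62 and 20 counts in a library. The loss of pairs that also align to C4a limits C4b.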
